A study of Sus scrofa with 8 samples.

Results

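The expression of 9 genes that mark B cells and plasma cells was followed across the olfactory epithelium (OE) libraries of androstenone-treated and control sows. The genes were taken by their gene name in the pig annotation (Ensembl, Sscrofa11.1), and they were 9 of 22516 genes in the tables. CD79A, CD79B, MS4A1 and PAX5 were treated as B cell genes, JCHAIN, MZB1, TNFRSF17 and XBP1 as plasma cell genes, and POU2AF1 as a gene of both. The sows were Landrace ♂ × Rongchang ♀ crosses, 8 months old and in estrus. In the androstenone treatment group the nose was sprayed with Boarmate, whose main content is androstenone, a pheromone of boars, and the OE was taken 30 min later. The control group was not sprayed. Each group held 2 sows, whose OE was sampled on both sides of the nose, and sequencing gave 4 libraries per group. The labels and methods used here do not tie libraries to animals. The libraries were therefore fitted as replicates, and the p-values measure the spread between libraries, of which 2 came from each sow.

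B cells are lymphocytes that recognise antigen through a surface immunoglobulin, which signals through the paired chains CD79A and CD79B. MS4A1 (CD20) is a B cell surface protein, and PAX5 is the transcription factor that holds B cell identity and is switched off when a B cell becomes a plasma cell. Plasma cells secrete antibody. In mucosal tissue much of it is polymeric IgA, which contains the joining chain JCHAIN and is carried to the lumen by the epithelial receptor PIGR. MZB1 is a chaperone of immunoglobulin assembly in the endoplasmic reticulum, TNFRSF17 (BCMA) is a survival receptor of plasma cells, and XBP1 is a transcription factor that expands the secretory apparatus of plasma cells and of other secretory cells. POU2AF1 is a transcriptional coactivator used by B cells and plasma cells.

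The genes lie on 8 chromosomes of Sscrofa11.1 in the RefSeq annotation. Among the B cell genes, PAX5 is at chr1:237574938-237785454, MS4A1 at chr2:11216238-11229060, CD79A at chr6:49996116-49999294 and CD79B at chr12:15052966-15056441. POU2AF1 is at chr9:39121422-39144636. Of the plasma cell genes, MZB1 is at chr2:141277541-141279652, TNFRSF17 at chr3:31137672-31141862, JCHAIN at chr8:67439405-67448628 and XBP1 at chr14:46011239-46016526.

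The deposited estimated counts of control 1 summed to 4178330, while those of the other 7 libraries summed to 81580146 to 100685566. The number of clean reads that the study lists for control 1 is within the range of the other libraries, so that the small total is a property of the deposited column, and how it arose was not tested. The 10 most abundant genes of control 4 took 29.4% of its counts, those of any other library 6.57% to 9.02%, and the summed level of control 4 over 9 bone markers was 33168 TPM, while the others had 549 to 1854 TPM. Levels are given in TPM, a share of the library corrected for transcript length, which lets genes be set against each other, and in whole tissue fewer cells of a type and less RNA per cell cannot be told apart. Of 8 matched markers of olfactory neurons, RTP1 was at 0 to 0.038 TPM, GNG13 at 0.0805 to 0.493 TPM and CNGA2 at 0.279 to 5.01 TPM, so that defining markers of the labelled tissue were low or near 0. STOML3 was the most abundant of them, at 34.9 to 190.2 TPM.

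The plasma cell genes were abundant in these libraries, and the B cell genes were well above the detection limit. JCHAIN held 0.0724% to 1.06% of all counts of a library, and by TPM it ranked between 5 and 107 among all genes. The mean level over the 8 libraries was 7192 TPM for JCHAIN, 297 TPM for MZB1, 252 TPM for XBP1 and 134 TPM for TNFRSF17. For the B cell genes it was 153 TPM for CD79A, 93.2 TPM for CD79B, 52.2 TPM for MS4A1 and 22.4 TPM for PAX5, and for POU2AF1 it was 24.2 TPM. JCHAIN exceeded the other 8 genes in every library, and genes next to each other in mean level below it overlapped in their range over the libraries. In control 1, with the deposited counts taken at face value, JCHAIN rested on 38212 counts (10850.4 TPM, 95% exact Poisson interval 10742 to 10959.8). TNFRSF17 had the fewest counts there, 265 counts (159.8 TPM, 95% exact Poisson interval 141 to 180.2). Both intervals describe counting error alone, without the spread between libraries or sows. They may be too narrow even for that, because PCR copies of a molecule are not independent.

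The B cell genes were highest in the same 3 libraries. CD79A was at 213, 261, 96.3 and 46.6 TPM in control 1 to 4 and at 116, 79.6, 135 and 274 TPM in androstenone 1 to 4. It was highest in androstenone 4, control 2 and control 1, and lowest in control 4. CD79B, its partner chain, was at 124, 235, 56.96 and 25.6 TPM in control 1 to 4 and at 26.7, 26.1, 45.4 and 206 TPM in androstenone 1 to 4. MS4A1 was at 79.8, 131, 37.3 and 12.05 TPM in control 1 to 4 and at 12.9, 13.3, 23.1 and 108.3 TPM in androstenone 1 to 4. For MS4A1, control 2 and androstenone 4 stood highest, while control 4, androstenone 1 and androstenone 2 lay close together at the bottom. PAX5 was at 23.3, 52.3, 15.8 and 8.00 TPM in control 1 to 4 and at 4.14, 6.43, 8.82 and 60.3 TPM in androstenone 1 to 4. The 3 highest libraries of each of the 4 genes were control 1, control 2 and androstenone 4, so that both groups held high and low libraries. The highest library exceeded the lowest by 5.88-fold for CD79A, 9.19-fold for CD79B, 10.9-fold for MS4A1 and 14.6-fold for PAX5. Over 15195 genes with a mean of at least 1 TPM and no value of 0, the median of this ratio was 2.48 and its 90th percentile 9.89.

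The plasma cell genes followed another order. JCHAIN was at 10850.4, 6312, 3080.3 and 1130.5 TPM in control 1 to 4 and at 8852, 5861, 9472 and 11979 TPM in androstenone 1 to 4. Control 4 and control 3 were its lowest libraries, and androstenone 4 and control 1 its highest. MZB1 was at 352, 281, 170.0 and 75.9 TPM in control 1 to 4 and at 388, 284, 349 and 472 TPM in androstenone 1 to 4. TNFRSF17 was at 159.8, 103, 62.6 and 28.6 TPM in control 1 to 4 and at 159, 114, 203 and 240.5 TPM in androstenone 1 to 4. For JCHAIN, MZB1 and TNFRSF17, control 4 was lowest and control 3 next, and control 1 lay among the androstenone libraries, so that the groups overlapped. XBP1 was at 275, 268, 214 and 196 TPM in control 1 to 4 and at 295, 326, 215 and 223 TPM in androstenone 1 to 4. Androstenone 2 and 1 were its highest libraries, and the highest exceeded the lowest by 1.66-fold, against 10.6-fold for JCHAIN, 6.22-fold for MZB1 and 8.42-fold for TNFRSF17. POU2AF1, used in both cell types, was at 30.9, 47.8, 17.3 and 6.91 TPM in control 1 to 4 and at 18.4, 14.6, 19.2 and 38.2 TPM in androstenone 1 to 4. Its 3 highest libraries were those of the B cell genes.

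**Figure D1:**
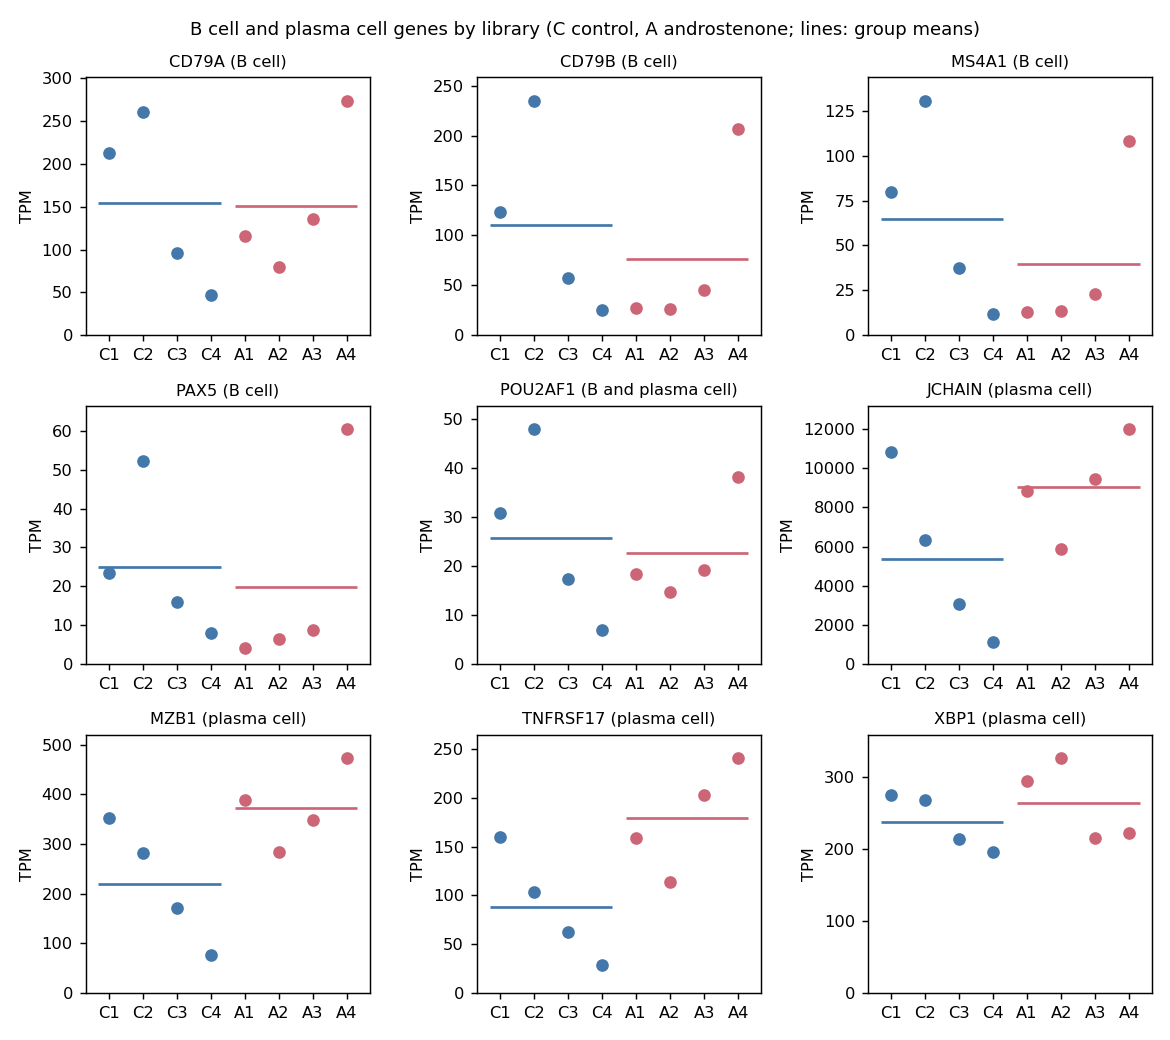
TPM of each of the 9 genes (vertical axes, each from 0) in control libraries C1 to C4 (blue points) and androstenone libraries A1 to A4 (red points), with lines at the group means. The B cell genes are high in C1, C2 and A4, and JCHAIN, MZB1 and TNFRSF17 are lowest in C3 and C4.

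To ask whether these genes differed after androstenone, the rounded counts of 21318 genes with at least 1 count were fitted with edgeR's quasi-likelihood test, and a call needed an unadjusted p below 0.05 and a log2 fold change of 1 or more in either direction. This rule called 6.42% of the genes, with 434 higher in the androstenone treatment group (2.04% of those tested) and 934 lower (4.38%). Of the 9 genes, 1 was called higher (TNFRSF17) and 0 were called lower. At an unadjusted p below 0.05 alone, 2 of the 9 were higher (TNFRSF17 and MZB1) and 0 were lower, against 5.09% and 6.24% of all genes tested. With p-values adjusted by Benjamini-Hochberg and the fold limit of the call kept, edgeR's quasi-likelihood test passed 0 of all genes (0%). By the same rule, edgeR's exact test passed 66 higher and 88 lower, edgeR's likelihood ratio test 83 and 114, and DESeq2 153 and 252. None of these tools passed any of the 9 genes after adjustment. In 0 of the 9 did the TPM of the groups separate without overlap, which held for 1.79% of all genes tested in the higher and 3.59% in the lower direction.

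The plasma cell genes all had log2 fold changes above 0 (androstenone over control), with a median of 0.93, against -0.021 over all genes tested. TNFRSF17 was at 88.5 ± 56.4 TPM in the control group and 179 ± 54.7 TPM in the androstenone treatment group (SD, n = 4 libraries each). It was called higher at the unadjusted cutoff, with a log2 fold change in counts of 1.19 (95% interval 0.19 to 2.18, standard error 0.44), and the quasi-likelihood test of edgeR gave unadjusted p = 0.0246 and, with Benjamini-Hochberg, adjusted p = 0.416. The call was lost without control 3 (log2 fold change 1.06, edgeR unadjusted p = 0.0606), control 4 (0.92, unadjusted p = 0.036), androstenone 3 (1.12, unadjusted p = 0.0527) or androstenone 4 (1.04, unadjusted p = 0.0618). MZB1 was at 219.8 ± 122 TPM in the control group and 373 ± 78.5 TPM in the androstenone treatment group (SD, n = 4 each). Its log2 fold change was 0.93 (95% interval 0.076 to 1.79, standard error 0.37, edgeR unadjusted p = 0.0361, adjusted p = 0.424), just under the limit of 1. JCHAIN was at 5343 ± 4248 TPM in the control group and 9041 ± 2514 TPM in the androstenone treatment group (SD, n = 4 each), with a log2 fold change of 0.94 (standard error 0.58, 95% interval -0.39 to 2.26, adjusted p = 0.548 from edgeR). Without control 1, MZB1 (log2 fold change 1.23, edgeR unadjusted p = 0.0119) and JCHAIN (1.52, unadjusted p = 0.0249) were called higher as well. MZB1 also passed the limit without control 2 (1.05, unadjusted p = 0.041) or androstenone 2 (1.03, unadjusted p = 0.0361). Of all genes, 416 were called higher without control 1, 421 without control 2 and 297 without androstenone 2. XBP1 differed least, at 238 ± 39.4 TPM in the control group and 265 ± 54.5 TPM in the androstenone treatment group (SD, n = 4 each), with a log2 fold change of 0.27 (95% interval -0.20 to 0.75, adjusted p = 0.613 from edgeR). The fold changes of these 4 genes were above 0 in all 20 alternative fits, which used other tests, scalings or filters or left out libraries. Without both control 1 and the bone-rich control 4, a setting chosen after seeing the data, TNFRSF17 (log2 fold change 1.26) and JCHAIN (1.11) were called higher. That fit called 206 of all genes higher.

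None of the B cell genes was called, and their group means differed by less than the SD of the libraries. CD79A was at 154 ± 99.6 TPM in the control group and 151 ± 84.97 TPM in the androstenone treatment group (SD, n = 4 libraries each, also below), a log2 fold change of 0.13 with a 95% interval of -1.04 to 1.31. CD79B was at 110.3 ± 92.7 TPM in the control group and 76.1 ± 87.2 TPM in the androstenone treatment group, with a log2 fold change of -0.39 and an interval of -2.23 to 1.46. MS4A1 was at 64.98 ± 52.00 TPM in the control group and 39.4 ± 46.2 TPM in the androstenone treatment group, and its log2 fold change was -0.57 with an interval of -2.47 to 1.33. Of these 3 genes MS4A1 had the largest difference, and its interval was also the widest. PAX5 was at 24.9 ± 19.4 TPM in the control group and 19.9 ± 27.00 TPM in the androstenone treatment group, a log2 fold change of -0.19 with an interval of -2.17 to 1.80. POU2AF1 was at 25.7 ± 17.7 TPM in the control group and 22.6 ± 10.6 TPM in the androstenone treatment group, with a log2 fold change of -0.019 and an interval of -1.16 to 1.12. The adjusted p of these 5 genes was 0.79 to 0.992 in edgeR's quasi-likelihood test. All 5 intervals reach past a log2 fold change of 1 in both directions, so that differences of that size were not detectable with these libraries.

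The values for CD79B, MS4A1 and PAX5 turned on single libraries. Without androstenone 4, CD79B (log2 fold change -1.55, unadjusted p = 0.0465), MS4A1 (-1.78, unadjusted p = 0.0325) and PAX5 (-1.76, unadjusted p = 0.0165) were called lower by edgeR's quasi-likelihood test, and the adjusted p was 0.485 for each. In the same fit 3.87% of 21193 genes were called lower, and CD79A was at -0.28 and not called. Without control 2, the fold changes of CD79B, MS4A1 and PAX5 were 0.27, 0.0014 and 0.43, on the other side of 0.

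**Figure D2:**
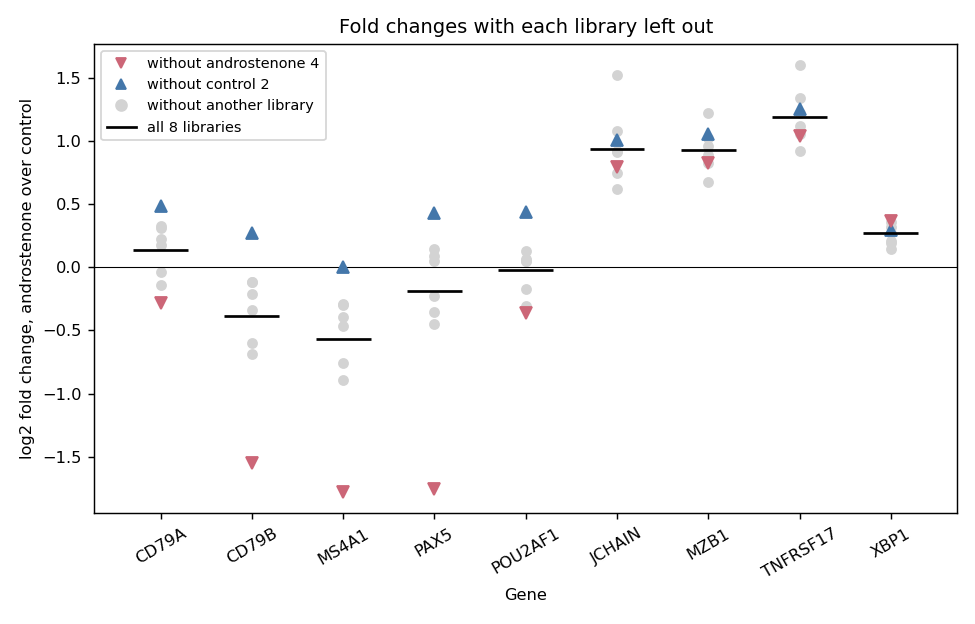
Fitted log2 fold change (vertical axis, androstenone over control) of each gene with each library left out in turn. Black lines are fits to all 8 libraries, red triangles leave out androstenone 4, blue triangles leave out control 2 and grey points leave out another library. The red triangles of CD79B, MS4A1 and PAX5 lie between -1.78 and -1.55, and all points of the plasma cell genes lie above 0.

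Plasma cell and B cell transcripts stood in different proportion across libraries. The summed TPM of the 4 B cell genes was 439.7, 679, 206 and 92.2 in control 1 to 4 and 160.0, 125, 213 and 649 in androstenone 1 to 4. The summed TPM of the 4 plasma cell genes, most of it JCHAIN, was 11637, 6965, 3527 and 1431 in control 1 to 4 and 9693, 6586, 10238 and 12915 in androstenone 1 to 4. Control 2 and androstenone 4 had similar B cell sums. Androstenone 1, 2 and 3 had B cell sums below control 1 and control 2 and plasma cell sums above control 3 and control 4. The plasma cell sum of androstenone 2 was below those of control 1 and control 2. The ratio of the plasma cell sum to the B cell sum was 26.5, 10.3, 17.1 and 15.5 in control 1 to 4 and 60.6, 52.5, 48.1 and 19.9 in androstenone 1 to 4. Androstenone 4 lay below control 1 in this ratio, so that the groups overlapped, with means of 17.3 ± 6.76 and 45.3 ± 17.7 (SD, n = 4 each). Without JCHAIN, the plasma cell sum was 547 ± 216 TPM in the control and 817 ± 92.6 TPM in the androstenone treatment group (SD, n = 4 each). Here too the groups overlapped, with control 1 (787 TPM) above androstenone 2 (725 TPM) and androstenone 3 (767 TPM). No test was applied to these sums, since they run over chosen genes.

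**Figure D3:**
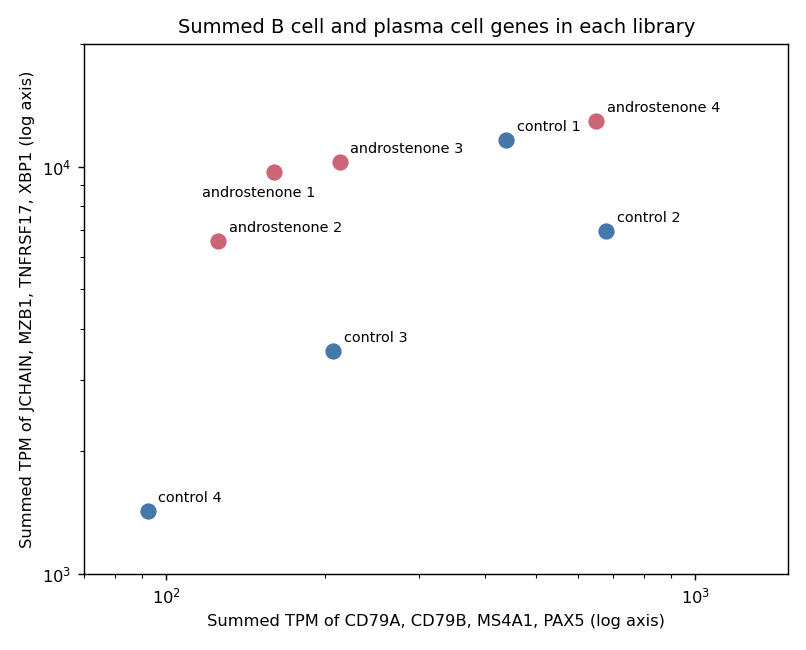
Summed TPM of the 4 plasma cell genes (vertical log axis) against the summed TPM of the 4 B cell genes (horizontal log axis), with 1 point per library, control in blue and androstenone in red. Androstenone 1, 2 and 3 lie below control 1 and control 2 in the B cell sum. They lie above control 3 and control 4 in the plasma cell sum, and control 4 is lowest on both axes.

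CD79A and CD79B pair in the B cell receptor, but their transcripts were not in a fixed ratio. CD79A over CD79B in TPM was 1.72, 1.11, 1.69 and 1.82 in control 1 to 4 and 4.36, 3.05, 2.98 and 1.33 in androstenone 1 to 4. Androstenone 1, 2 and 3, the libraries with the highest plasma cell to B cell ratio, had the highest values, and androstenone 4 lay within the range of the control libraries.

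The summed TPM of 25 further B cell genes was 539, 728, 323 and 215 in control 1 to 4 and 237, 224, 271 and 687 in androstenone 1 to 4, highest in the same 3 libraries. Of the 25, all matched and tested, 0 were called by edgeR's quasi-likelihood test, and at an unadjusted p below 0.05 alone 1 was higher (P2RX5) and 0 lower. Their median log2 fold change was -0.17. CD40, the receptor for T cell help, had the highest mean level (62.4 TPM), and TLR9, a sensor of microbial DNA, the lowest (1.18 TPM). Without androstenone 4, 7 of the 25 were called lower, among them CD22, CD37, BLK, SPIB, FCRLA and FCRL1, in the fit that called 3.87% of all genes lower. The genes nearest to the mean profile of the B cell genes included TNFRSF13C (0.134), CXCR5 (0.147), ZC3H12D (0.164) and FCRLA (0.175). The B cell genes that form the profile lay at 0.110 (CD79B), 0.225 (MS4A1), 0.354 (PAX5) and 0.541 (CD79A). The values are root mean square differences in centred log2 CPM (counts scaled by library size) over the 8 libraries, whose median over 13441 genes was 1.18. TNFRSF13C is the B cell receptor for the survival factor BAFF, and CXCR5 guides B cells into follicles.

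Genes of the germinal centre, where B cells mutate and select their antibody genes, were taken as a list of 12, of which 8 matched. Their summed TPM was 309, 483, 161 and 88.2 in control 1 to 4 and 112, 118, 171 and 462 in androstenone 1 to 4, again highest in control 2, androstenone 4 and control 1. ELL3, an elongation factor expressed in germinal centre B cells, was at 43.4, 112, 26.4 and 9.14 TPM in control 1 to 4 and at 4.19, 11.2, 16.1 and 134 TPM in androstenone 1 to 4. It was highest in androstenone 4 and control 2 and lowest in androstenone 1, a range of 31.9-fold. RGS13, a regulator of G protein signalling in these cells, was at 4.52, 17.97, 6.39 and 2.44 TPM in control 1 to 4 and at 0.33, 2.79, 2.82 and 14.3 TPM in androstenone 1 to 4. ELL3 and RGS13 were singled out after their values were seen. Of the 8 genes 0 were called by edgeR's quasi-likelihood test, with 0 also at an unadjusted p below 0.05 alone, and the median log2 fold change was -0.38. Without androstenone 4, 4 of the 8 were called lower, among them ELL3, S1PR2 and MEF2B, beside 3.87% of all genes in that fit.

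A list of 10 genes used in early B cell development, of which 9 matched, held low and well expressed genes. RAG1 and RAG2, which cut antigen receptor genes for recombination, were at 0.287 to 0.651 and 0.133 to 0.485 TPM. DNTT, which adds bases at the cut ends, was at 0.14 to 1.33 TPM, and VPREB1, part of the receptor of precursor B cells, at 0.371 to 1.30 TPM. VPREB3 was at 1.21 to 12.3 TPM. MME, a surface peptidase of precursor B cells and of stromal cells, was highest at 17.8 to 55.8 TPM, followed by SOX4 at 15.6 to 29.2 TPM, CD24 at 7.62 to 13.9 TPM and ERG at 0.949 to 14.2 TPM, which other cell types also express. Of the 9 genes 0 were called by edgeR's quasi-likelihood test, with 0 also at an unadjusted p below 0.05 alone, and their median log2 fold change was -0.45. Without androstenone 4, VPREB3 was called lower (log2 fold change -1.46), 1 of 9 beside 3.87% of all genes in that fit. Other than MME and RAG2, the highest and the lowest of the list, the genes named here were chosen after their values were seen.

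Of 18 further plasma cell genes, 17 matched, 1 was called higher (IRF4) and 0 lower, beside 2.04% and 4.38% of all genes tested, and 15 had fold changes above 0, as had 10270 of the 21318 genes tested. Their median log2 fold change was 0.36. IRF4, a transcription factor that plasma cells depend on, was at 55.7, 32.2, 44.3 and 14.7 TPM in control 1 to 4 and at 91.9, 72.2, 51.1 and 79.4 TPM in androstenone 1 to 4. Control 1 was above androstenone 3, so that the groups overlapped in TPM. They did not in CPM on TMM-scaled totals, with control 1 at 150 and androstenone 3 at 159. The TMM factors of these libraries were 1.17 and 1.03. In CPM 1 of the 17 genes separated upward, beside 3.89% of all genes tested. The log2 fold change of IRF4 was 1.17 (95% interval 0.38 to 1.95, standard error 0.35), with unadjusted p = 0.00888 and adjusted p = 0.393 in the edgeR fit. Of the 20 alternative fits, 19 kept the call, and it was lost without control 4 (log2 fold change 0.94, edgeR unadjusted p = 0.0116). SEC11C, a signal peptidase subunit, was the other gene with an unadjusted p below 0.05 (log2 fold change 0.63, edgeR unadjusted p = 0.0284). FKBP11, a folding factor of secretory cells, had the highest mean level of the list (468 TPM), and CCR9, a homing receptor of gut lymphocytes, the lowest (0.39 TPM). The plasma cell surface marker SDC1 (CD138), which epithelial cells also make, had a log2 fold change of 0.0069 (95% interval -0.51 to 0.53) and was named after its value was seen. The 5 genes nearest to the profile of JCHAIN, MZB1 and TNFRSF17 were CTRL (0.198), TFAP2B (0.253), SLAMF7 (0.261), MSC (0.278) and CCR10 (0.304), against a median difference of 0.987. SLAMF7 is a surface receptor of plasma cells, and CCR10 is a receptor by which IgA plasma cells home to mucosa. Both were already on the list of further plasma cell genes. CTRL and TFAP2B, the nearest, and MSC were on none of the lists used here.

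**Figure D4:**
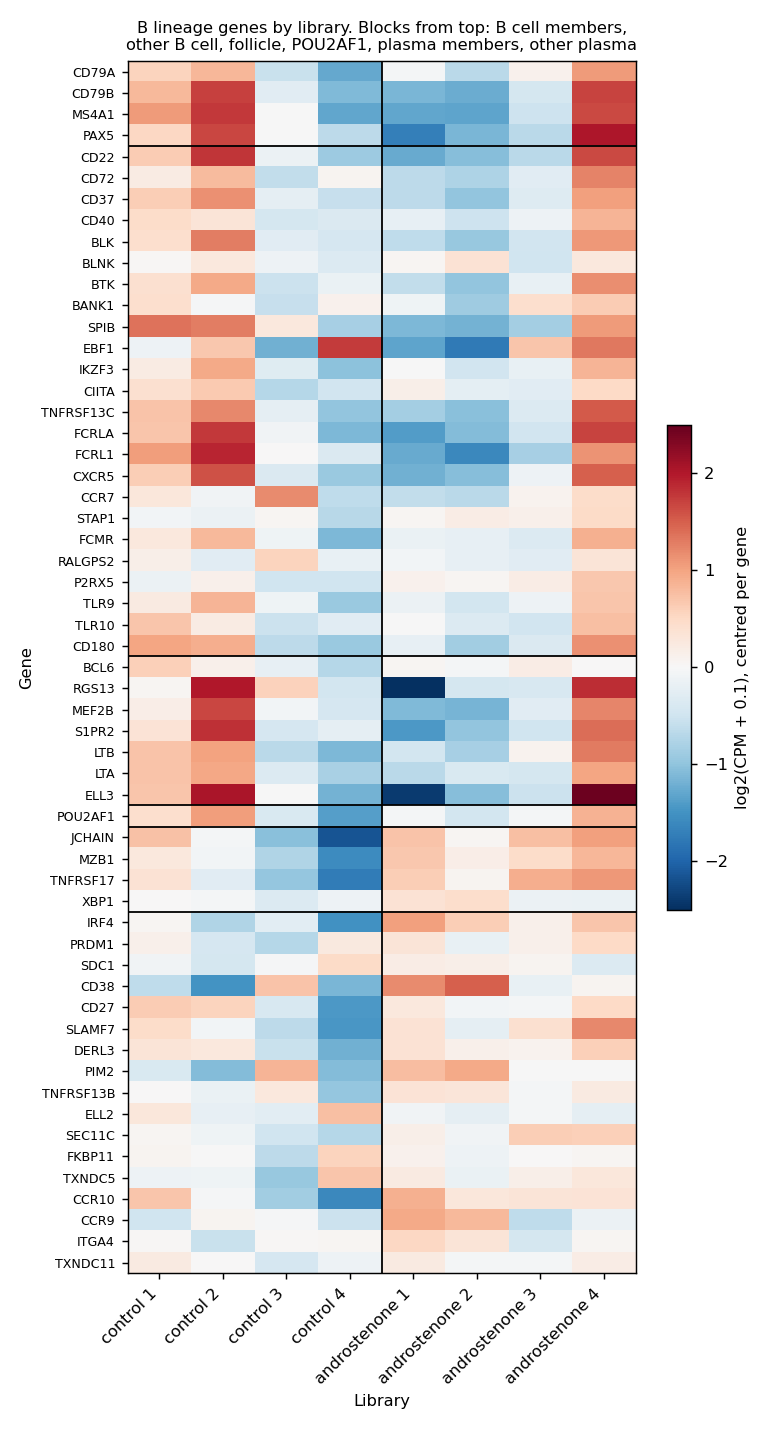
log2(CPM + 0.1) of B lineage genes (in lines) in the 8 libraries (in columns), centred on each gene's mean, red above and blue below that mean. Control 2 and androstenone 4 are red in most B cell and follicle genes, and control 4 is blue in JCHAIN, MZB1 and TNFRSF17.

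TNFRSF17 and its relative TNFRSF13B bind the survival factors BAFF (TNFSF13B) and APRIL (TNFSF13), and TNFRSF13C binds BAFF. TNFSF13B was at 16.7, 14.2, 38.4 and 8.67 TPM in control 1 to 4 and at 63.5, 86.5, 30.4 and 36.7 TPM in androstenone 1 to 4. Androstenone 1 and 2 lay above every control library, and androstenone 3 and 4 lay below control 3 and above the other controls. Androstenone 1 and 2 and control 3 were also the libraries with the largest ciliated cell marker sums (1149, 1364 and 1561 TPM, the others 267 to 711 TPM), and the part of these cells in the level of TNFSF13B was not tested. TNFSF13B was called higher, with a log2 fold change of 1.63 (95% interval 0.52 to 2.74, standard error 0.49), with unadjusted p = 0.00923 and adjusted p = 0.399 in the edgeR fit. It was the only call among 10 matched of 12 listed genes of IgA transport and the plasma cell niche, whose median log2 fold change was 0.029, beside 2.04% of all genes called higher. The call was lost without both control 1 and control 4 (log2 fold change 1.20, edgeR unadjusted p = 0.101). TNFSF13 was at 33.4 to 128 TPM, with a log2 fold change of 0.089 (interval -0.79 to 0.97). The receptors TNFRSF13C, found on B cells, and TNFRSF13B, found on B cells and plasma cells, had log2 fold changes of -0.17 (interval -1.71 to 1.38) and 0.36 (interval -0.25 to 0.98). TNFSF13 and these receptors were named as relatives of TNFRSF17 after their values were seen.

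PIGR, the epithelial carrier of polymeric IgA, was at 931, 2034, 3688 and 910.2 TPM in control 1 to 4 and at 2287, 3006, 919.7 and 714 TPM in androstenone 1 to 4. It was highest in control 3 and androstenone 2, which also had the largest sums of ciliated cell markers (1561 and 1364 TPM, against 267 to 1149 TPM in the others), and the part of ciliated cells in its level was not tested. Its log2 fold change was 0.03 (interval -1.36 to 1.42), and it was named after its value was seen. ALDH1A1, an enzyme of retinoic acid synthesis, had the highest mean level of this list (1961 TPM) and IL6, a cytokine that acts on plasma cells, the lowest (3.17 TPM).

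**Figure D5:**
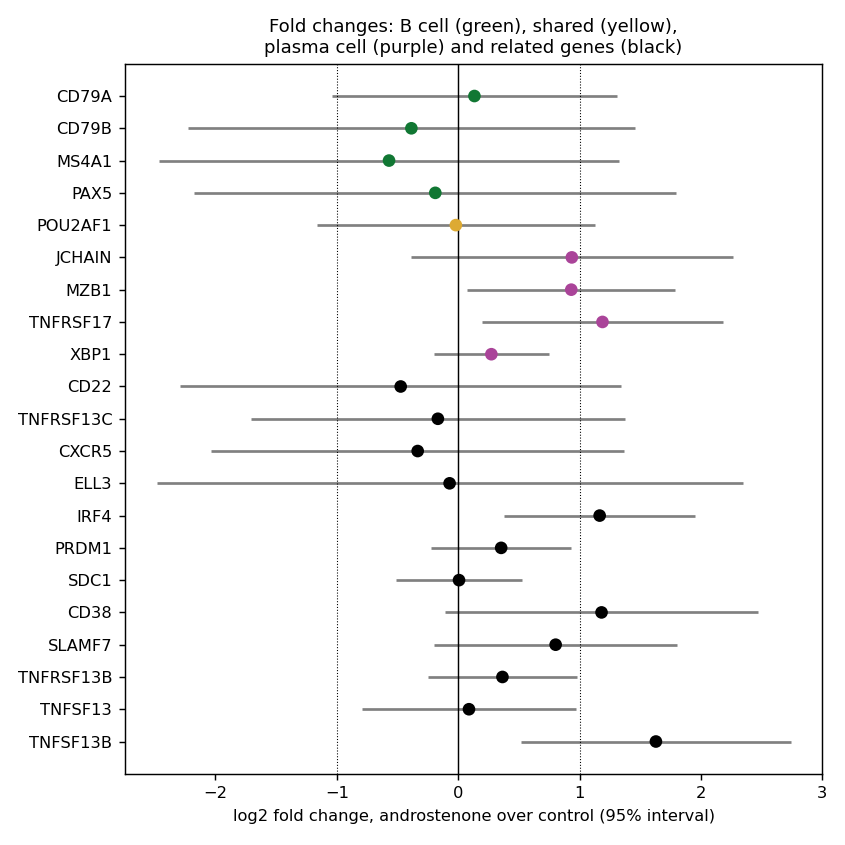
Fitted log2 fold changes (horizontal axis, androstenone over control) with 95% intervals as bars, for the B cell genes (green), POU2AF1 (yellow), the plasma cell genes (purple) and related genes (black), with dotted lines at the fold limits of the call. The intervals of MZB1, TNFRSF17, IRF4 and TNFSF13B lie above 0, and those of the 4 B cell genes include 0.

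Genes of the secretory pathway that are linked to XBP1 were taken as a list of 18, of which 0 were called by edgeR's quasi-likelihood test. At an unadjusted p below 0.05 alone, 4 were higher (PDIA4, SDF2L1, SEC61B and ERN1) and 1 lower (CREB3L2) of 18, beside 5.09% and 6.24% of all genes tested, and the median log2 fold change was 0.16. SDF2L1, a component of chaperone complexes, was at 30.5, 28.4, 19.9 and 19.97 TPM in control 1 to 4 and at 33.7, 34.7, 32.98 and 37.2 TPM in androstenone 1 to 4. Every androstenone library was above every control library, with a log2 fold change of 0.61 (standard error 0.17, edgeR unadjusted p = 0.00674, adjusted p = 0.393). In TPM, PDIA4, SDF2L1 and SEC61B separated upward and CREB3L2 downward, 3 and 1 of 18, beside 1.79% and 3.59% of all genes tested. On the CPM scale SEC61B overlapped, while EDEM1 and HERPUD1 separated upward too, which makes 4 of 18 above and 1 of 18 below, beside 3.89% and 2.64% of all genes tested. SSR4, a subunit of the translocon complex, had the highest mean level (836 TPM) and CREB3L2 the lowest (12.6 TPM). These genes serve secretory cells in general, and their values were not separated by cell type.

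Markers of other cell types differed between the same libraries. The summed TPM of 10 matched T cell markers was 216, 196, 77.1 and 52.01 in control 1 to 4 and 159.8, 108.2, 147 and 207 in androstenone 1 to 4, and 0 of them were called or had an unadjusted p below 0.05 by edgeR's quasi-likelihood test, as for the macrophage, ciliated cell and olfactory neuron markers given next. CD3E, the most abundant of them, was at 54.4, 40.4, 17.5 and 11.9 TPM in control 1 to 4 and at 42.1, 26.9, 35.8 and 46.6 TPM in androstenone 1 to 4. Like the plasma cell genes, the T cell sum was lowest in control 4 and control 3. The plasma cell sum over the T cell sum was 53.9, 35.5, 45.7 and 27.5 in control 1 to 4 and 60.7, 60.9, 69.7 and 62.3 in androstenone 1 to 4, without overlap. The B cell sum over the T cell sum was 2.04, 3.46, 2.68 and 1.77 and 1.00, 1.16, 1.45 and 3.13, with overlap. These were among several ratios formed from chosen genes, and no test was applied to them. How often ratios of other genes separate was not examined, and in TPM 0 of the 9 genes separated without overlap. Macrophage markers summed to 283 to 902 TPM in the control and 318 to 1017 TPM in the androstenone libraries, and 0 of 9 were called. Nasal gland markers summed to 2669 to 11487 and 3526 to 7005 TPM. Of 9 matched, 1 was called higher (LYZ) and 2 lower (LPO and SCGB1A1), beside 2.04% and 4.38% of all genes tested. Ciliated cell markers summed to 267 to 1561 and 346 to 1364 TPM, and 0 of 10 were called. Olfactory neuron markers summed to 80.2 to 215 and 94.8 to 186 TPM, and 0 of 8 were called. This sum includes STOML3, the most abundant of them, and was largest in control 3, androstenone 2 and androstenone 1. The ciliated cell sum was largest in the same libraries. Erythroid and marrow markers summed to 50.5 to 224 and 31.3 to 110.5 TPM, highest in control 4. Of these, 1 of 9 was called lower (SLC4A1), beside 4.38% of all genes tested. All 9 bone markers were called lower, beside the same 4.38% of all genes tested. Control 1, 2 and 3 were at 686, 719.7 and 1854 TPM in sum and the androstenone libraries at 549 to 1149 TPM. Control 4 was the library with the lowest JCHAIN, MZB1 and TNFRSF17. The part of these cells in the B cell and plasma cell values was not tested.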

How the data were processed

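RNA of the OE of 4 sows was sequenced as 8 libraries. Per the submitters' processing notes and the study's methods, the authors cleaned reads with fastp 0.23.1 and quantified transcripts with Kallisto 0.48.0 on the Ensembl transcripts of Sscrofa11.1. The authors deposited estimated counts and TPM per gene and library, while the step from transcripts to genes was not described in the sources used here. Estimated counts were rounded to whole numbers, and 21318 of 22516 genes with at least 1 count were fitted with edgeR 4.0.16 (TMM, quasi-likelihood test, group alone in the model) in R 4.3.3. The cutoffs (unadjusted p below 0.05, absolute log2 fold change of at least 1) follow the study's methods, and adjusted p-values are Benjamini-Hochberg over all genes tested. Alternatives used edgeR's exact and likelihood ratio tests, DESeq2 1.42.0, limma 3.58.1 (voom, and log2(TPM + 0.1) and log2(TPM + 1)), other size factors, other filters, a replicate block and each library left out. The fit was checked on simulated data.

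The 9 genes and all lists were chosen with earlier results of these data known, and no set test was made. The genes were described in full, from each other list the genes past the cutoff and the highest and lowest by mean TPM, and the 5 genes with a mean CPM of at least 1 nearest to each profile. Some genes that met this rule are not reported here. Genes named outside this rule were chosen after their values were seen. Positions were taken from the RefSeq annotation by symbol. The listed symbols that did not match a gene name in the tables included CR2, FCER2, CXCL13, FDCSP, IGLL1, FCRL5, MADCAM1, CCL20, CD3G, CNGB1, OMP, DMBT1, MUC5B and AZGP1. Symbols of immunoglobulin genes matched 0 rows of the tables, so that these genes were not analysed here. Summed counts were 4178330 in control 1 and 81580146 to 100685566 in the others. The small total of control 1 is that of the deposited column, since its listed clean reads are within the range of the other libraries.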

Additional observations from a re-analysis of the deposited data

Results flagged for a closer look

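In the androstenone treatment group, androstenone 4 stood far from the other 3 libraries for 3 B cell genes, by a gap to the nearest library of 0.893 of the group's range for CD79B (206 TPM), 0.893 for MS4A1 (108.3 TPM) and 0.917 for PAX5 (60.3 TPM). The B cell sum of the same library (649 TPM) stood apart by 0.833 of the range. These lie above Dixon's 95% critical value for 4 libraries, and 26 groups of values were checked. Chance gives such a gap in about 1 in 20 groups if the values are normally distributed, which was not tested. The gaps were taken in TPM and not on a log scale, and the flag can depend on that choice. The 4 values are not independent, since they come from the same library and the sum contains the 3 genes.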

How the results depend on the processing

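The fold changes of JCHAIN, MZB1, TNFRSF17 and XBP1 were above 0 in all 20 alternatives, at no less than 0.62, 0.68, 0.92 and 0.14, and 0 of the 9 passed after adjustment in any of them. The call of TNFRSF17 was kept in 15 of 20 alternatives, with adjusted p of 0.165 to 0.893 over them, and was lost with library sizes only (log2 fold change 1.13, edgeR unadjusted p = 0.0618), which left 0 of the 9 called higher. With limma voom, and without both control 1 and control 4, 2 of the 9 were called higher, beside 376 and 206 of all genes. Leaving out 1 library gave 0 to 3 of the 9 called higher and 0 to 3 called lower, 0 to 7 further B cell genes, 0 to 4 follicle genes and 0 to 1 precursor genes called lower, and 0 to 3 further plasma cell genes and 1 to 2 niche genes called higher. Further plasma cell genes called higher numbered 2 with edgeR's exact test, 2 with its likelihood ratio test and 3 with limma voom. These tests called 512, 579 and 376 of all genes higher. Niche genes called higher numbered 0 without both control 1 and control 4. Over all genes, 434 called higher became 152 with log2(TPM + 1), 206 without both control 1 and control 4, and 263 to 951 with 1 library left out. The 934 called lower became 602 with limma voom, 427 with log2(TPM + 0.1), 169 with log2(TPM + 1), and 565 to 1463 with 1 library left out. After adjustment, with the fold limit of the call kept, the 0 genes of edgeR's quasi-likelihood test became 66 higher and 88 lower with edgeR's exact test. They became 83 and 114 with its likelihood ratio test, 153 and 252 with DESeq2, 1 higher with library sizes only and 2 higher with log2(TPM + 0.1). Further B cell, follicle, precursor and secretory pathway genes called numbered 0 with edgeR's exact and likelihood ratio tests, DESeq2 and limma voom. The cause of these shifts was not tested.

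With 1 library left out, the log2 fold changes ranged from -0.28 to 0.49 for CD79A, -1.55 to 0.27 for CD79B, -1.78 to 0.0014 for MS4A1, -1.76 to 0.43 for PAX5 and -0.36 to 0.44 for POU2AF1. Fold changes on the other side of 0 were seen only in genes that were not called. CD79A was at -0.037, -0.14 and -0.28 without control 3, control 4 and androstenone 4, and at -0.084 without both control 1 and control 4. Without control 2, CD79B was at 0.27, MS4A1 at 0.0014 and PAX5 at 0.43, and PAX5 was at 0.14, 0.09 and 0.052 without androstenone 1, 2 and 3. POU2AF1 was at 0.24 with limma voom, 0.041 with log2(TPM + 0.1), 0.025 with log2(TPM + 1), 0.069 and 0.44 without control 1 and 2, and 0.047, 0.13 and 0.048 without androstenone 1, 2 and 3.

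With the replicate number as a block, 282 genes were called higher and 301 lower, 1 of the 9 stayed called higher, and POU2AF1 was at 0.11. Libraries with the same number in both groups did not deviate together (correlations of -0.035, -0.498, -0.599 and 0.173 over 18347 genes), and the labels give the number no shared source, so that the numbers were not taken as pairs. Counting error is largest in control 1, which has the smallest deposited count total.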
